A study of Mus musculus with 9 samples.

Results

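Angiopoietin-like proteins and hepatokines are proteins that the liver secretes and that act on lipid and glucose handling elsewhere in the body. The 8 genes described here were taken by symbol, with earlier results of these data known. All 8 were found among the 54532 gene IDs of the count table: Angptl4, Angptl6, Angptl8, Fgf21, Fst, Inhbc, Inhbe and Lect2. All 8 passed the filter on low counts. Across them, every factor had a lower mean in HFD + PBS than in normal diet livers, and 6 of the 8 had a higher mean in HFD + IgG1 than in HFD + PBS livers. None of these differences passed edgeR's test over all genes.

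RNA-seq covered 9 livers, 1 library per mouse, split evenly over 3 groups. HFD + IgG1 mice were ApoE-/-, of the C57BL/6 background, given a high-fat diet and then 3 mg of recombinant human IgG1 into the peritoneum. HFD + PBS mice had the same genotype and diet and were injected with PBS, and normal diet mice were ApoE-/- on the same background. All mice were male per the series design. The high-fat diet held 41% of calories from fat and began at 4 weeks of age. It lasted 20 weeks and was followed by 1 week of chow, with injections at 25, 26 and 27 weeks and death at 29 weeks. The feed after 25 weeks, and the age at death and injections of the normal diet mice, are not stated in the labels, so diet, age and injection cannot be told apart against that group. Livers were chosen for sequencing by their Oil Red O staining and TG, and the target of the IgG1 is not named. Replicate 5 of HFD + IgG1 is labelled IgG1 in the treatment field, where replicates 6 and 7 are labelled IgG2 and IgG3. The series design puts all of them in one group.

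Total counts ran from 16215194 to 18538463 per library. Apoe, the gene deleted in this strain, reached 235888 counts in 1 library, labelled HFD + IgG1 replicate 5, while each of the other libraries held 225 to 1655. The libraries labelled HFD + PBS replicate 6 and normal diet replicate 5 had 10970 and 17065 counts of Xist, the RNA of the inactive X chromosome, and 0 counts over 4 Y-linked genes, which allows up to 3. The other 7 had at most 4 counts of Xist. These 3 libraries go against their labels and are called mismatched, and results are given with and without them. Hepatocyte markers, of which 7 of 8 were matched by symbol, were all detected in every library. Their summed level ranged from 90300 to 166000 CPM in HFD + IgG1, from 51800 to 103000 in HFD + PBS and from 77100 to 86400 in normal diet. CPM is the count relative to the library total, in the usual unit of that name, after scaling by TMM, edgeR's factor for library composition. Summed neutrophil markers, 6 in all, ranged from 12.8 to 468 CPM in HFD + IgG1, from 375 to 2940 in HFD + PBS and from 34.1 to 148 in normal diet. Within HFD + IgG1, replicate 6 held the 468 and replicates 5 and 7 held 12.8 and 19.2. Summed cholangiocyte markers, all 6 detected in every library, ranged from 62.9 to 103 CPM in HFD + IgG1, from 146 to 263 in HFD + PBS and from 54.6 to 77.2 in normal diet. The HFD + PBS sums lay above both other groups, but Spp1 alone held 226, 129 and 121 CPM of them in replicates 3, 4 and 6. Krt7 and Tspan8 also lay above both other groups there, while Krt19 and Epcam overlapped. Sox9 went the other way between the high-fat diet groups, with 14.2, 10.6 and 13 CPM in HFD + PBS against 17.2, 14.3 and 19.1 in HFD + IgG1. Summed Kupffer cell and macrophage markers, also 6, were at 719, 2310 and 946 CPM in HFD + IgG1 replicates 5, 6 and 7, from 2110 to 2590 in HFD + PBS and from 1700 to 2170 in normal diet. The part of these markers in the results was not tested, and in whole liver fewer cells of a type and less RNA per cell cannot be told apart.

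The factors fall into 4 roles. Several ANGPTL proteins inhibit lipoprotein lipase, the enzyme that releases fatty acids from circulating triglyceride: ANGPTL4 is made in fasting, while ANGPTL8 is made after feeding. FGF21 is an endocrine fibroblast growth factor that signals through FGF receptors with the coreceptor beta-Klotho, and its liver gene answers to PPAR-alpha in fasting and to ATF4, the transcription factor of amino acid and ER stress. Inhbc and Inhbe encode the beta C and beta E subunits of activins, signals of the TGF-beta family that hepatocytes release, and Fst encodes follistatin, which binds activins and blocks them. LECT2 is a chemotactic protein that hepatocytes release.

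The DNA around the gene starts was searched for motifs that transcription factors bind. The RefSeq promoter table (GRCm38.p6, from 250 bases before to 50 after each start) held 6 of the 8 genes, without Angptl4 and Fst. The 8-letter core TGATGNAA, which ATF4 and its C/EBP partners bind, was searched on both strands. It was present in 3 of these 6, Angptl8, Fgf21 and Inhbe, against 3.97% of all 32851 promoters in the table. In all 3 the free base was C, a form (TGATGCAA, contained in the first) held by 0.895% of the promoters. The motifs were chosen after the values of the genes were seen, and a match is a description of letters only. Among 16 listed ATF4 and stress targets, which all had promoters, 7 held TGATGNAA, including Asns, Chac1 and Trib3. The 3 promoters are shown because they are the ones that share this core, which stands in capitals in the direction of the gene, as TGATGCAA in Angptl8 and as its reverse complement TTGCATCA in Fgf21 and Inhbe.
Angptl8, chr9:21835260-21835559, plus strand: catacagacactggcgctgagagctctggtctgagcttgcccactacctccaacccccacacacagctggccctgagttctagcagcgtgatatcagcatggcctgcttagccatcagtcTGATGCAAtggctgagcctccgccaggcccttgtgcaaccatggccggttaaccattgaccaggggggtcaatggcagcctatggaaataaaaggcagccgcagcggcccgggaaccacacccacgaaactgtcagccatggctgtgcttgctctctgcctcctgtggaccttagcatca
Fgf21, chr7:45615441-45615740, minus strand: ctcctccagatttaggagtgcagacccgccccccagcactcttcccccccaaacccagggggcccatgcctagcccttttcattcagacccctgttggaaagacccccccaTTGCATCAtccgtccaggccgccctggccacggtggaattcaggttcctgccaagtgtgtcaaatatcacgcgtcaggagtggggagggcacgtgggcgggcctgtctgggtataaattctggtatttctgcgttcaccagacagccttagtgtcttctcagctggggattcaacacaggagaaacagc
Inhbe, chr10:127351799-127352098, minus strand: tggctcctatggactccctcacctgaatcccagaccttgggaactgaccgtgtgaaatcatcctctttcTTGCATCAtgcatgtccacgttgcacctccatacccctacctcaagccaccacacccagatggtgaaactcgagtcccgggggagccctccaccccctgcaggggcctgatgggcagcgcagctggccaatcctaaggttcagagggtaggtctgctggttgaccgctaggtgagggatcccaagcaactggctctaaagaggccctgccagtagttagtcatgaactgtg
Counted from the gene start, the first base of the match lay at -130 in Angptl8, -139 in Fgf21 and -181 in Inhbe. The Fgf21 promoter also held CACGTG, the E-box read by ChREBP and SREBP, at -50, and this motif was in 7.15% of all promoters and in none of the other 5. GTAAACA, the forkhead core, and the DR1 element of PPAR-alpha were in 0 of the 6, against 3.65% and 0.0396% of all promoters. The DR1 element was searched in an exact form, found in 13 of the 32851 promoters. It was also in 0 of the 11 listed PPAR-alpha and fasting targets that had promoters. The search therefore cannot tell whether the promoters of the factors hold a PPAR-alpha site. The Inhbe window lies inside the longer gene span that GENCODE M21 gives.

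**Figure D1:**
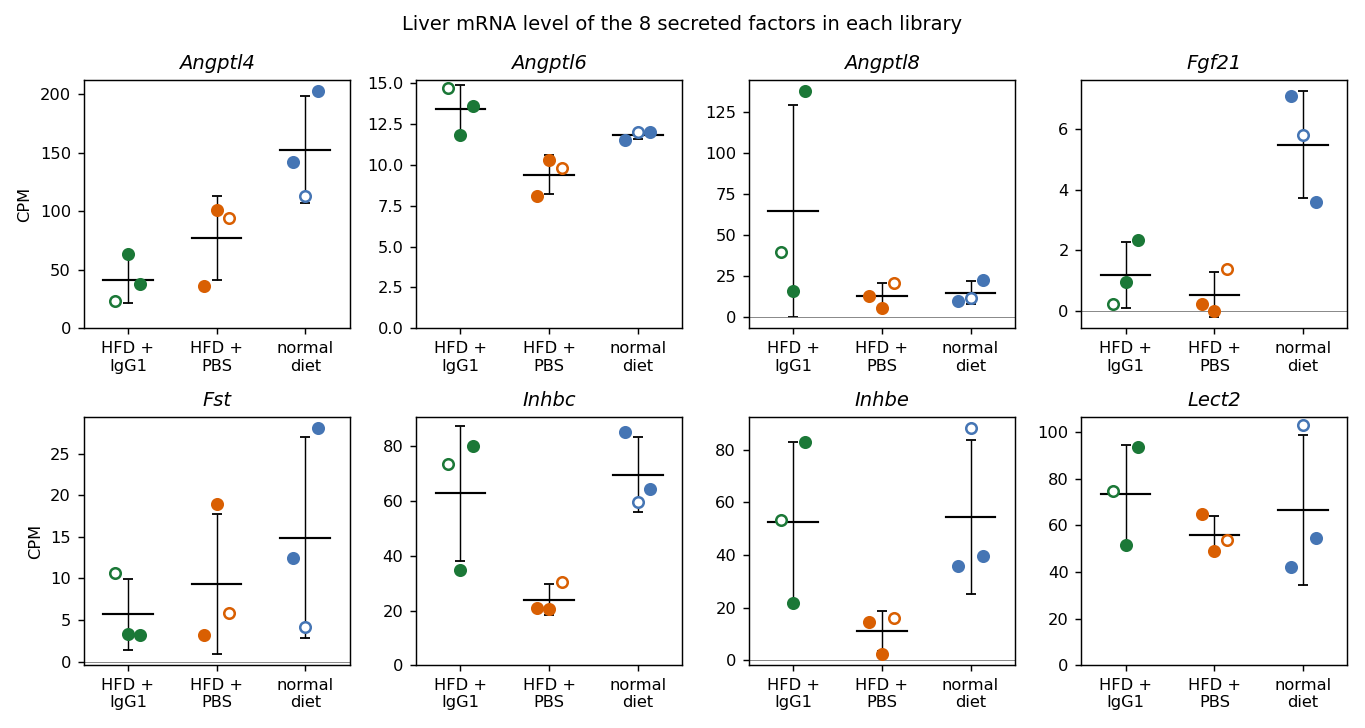
Levels of the 8 factors in CPM (linear axes), 1 point per library, in HFD + IgG1 (green), HFD + PBS (orange) and normal diet (blue). Horizontal lines are means and bars are SD (n = 3). Open points are the libraries that go against their labels. Fgf21 is at 2.35 CPM or less in all 6 libraries after the high-fat diet, and Inhbc is at 30.5 CPM or less in all 3 HFD + PBS libraries.

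Levels between genes were compared as CPM per kilobase of annotated exon. For Inhbe this length was 5319 bases, and its RefSeq start lies inside that longer annotated span. A shorter transcript would give Inhbe a higher level per kilobase, so its place in these orders depends on the annotation. In HFD + IgG1 livers Lect2, at 79.7 ± 22.9, and Angptl8, at 74.6 ± 75.1, came first (mean ± SD, n = 3), and Fgf21 and Fst, each at 1.24, came last. In HFD + PBS livers the order began with Lect2 at 60.7 ± 8.82, followed by Angptl4 at 21.7 ± 10, Angptl8 at 14.9 ± 8.76 and Inhbc at 12.9 ± 3.04, which did not differ beyond their spread. Inhbe, at 2.09 ± 1.42, and Fst, at 2.04 ± 1.84, stood close together there, and Fgf21, at 0.565 ± 0.787, was last. In normal diet livers Lect2 stood at 72.7 ± 35.2, and Angptl4 at 43.1 ± 13.1 and Inhbc at 37.4 ± 7.31 followed within the spread. Angptl8, at 16.8 ± 8.15, came next and lay below Inhbc in every normal diet library. Inhbe at 10.2 ± 5.49, Angptl6 at 7.47 ± 0.183, Fgf21 at 5.77 ± 1.85 and Fst at 3.25 ± 2.64 followed, each within the spread of the one before it. On the CPM scale the ratio of the highest to the lowest of the 9 libraries was 36.7-fold in Inhbe and 25.2-fold in Angptl8, against 1.82-fold in Angptl6 and 2.45-fold in Lect2. Fgf21 ran from 0 to 7.08 CPM and is not ranked among these, since 1 library had 0 counts.

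The comparisons were read from 1 fit over 14763 genes, with 8 factors in each. The first, HFD + PBS against normal diet, bears on the high-fat diet. The second, HFD + IgG1 against HFD + PBS, bears on the antibody, and the third set HFD + IgG1 against normal diet. The first and second share the HFD + PBS libraries, so their values for a gene are set side by side and not counted as separate evidence. In none of the 3 did a factor pass edgeR's adjusted p of 0.05, and over all genes 0 were called (0% of 14763 in each). At an unadjusted p under 0.05, edgeR gave 3076 (20.8%), 3569 (24.2%) and 1040 (7.04%) genes, and DESeq2 called 1184, 1251 and 111 at its own adjusted p, where limma-voom called 0. In HFD + PBS against normal diet, 3 factors were lower at an unadjusted p under 0.05 and 0 higher (11.4% and 9.41% of all genes). Without overlap between the groups, meaning every library of one lay below every library of the other, 5 were lower and 0 higher (15.3% and 13.0% of all genes, 28.3% together). These 5 were Angptl4, Angptl6, Fgf21, Inhbc and Inhbe. In HFD + IgG1 against HFD + PBS, 4 factors were higher and 0 lower at an unadjusted p under 0.05 (12.6% and 11.6% of all genes). With upper-quartile factors the split of all such genes in that comparison was 1369 higher and 1996 lower, in place of 1863 and 1706. Angptl6, Inhbc and Inhbe were higher there with no overlap and 0 were lower (15.3% and 11.2% of all genes, 26.5% together). In HFD + IgG1 against normal diet, 1 factor was higher (3.83% of all genes) and 1 lower (3.21%) at an unadjusted p under 0.05. Angptl4 and Fgf21 were lower there with no overlap and 0 were higher (6.41% and 5.54% of all genes, 11.9% together). The median log2 fold change of the 8 was -0.83, 0.82 and -0.10 in the 3 comparisons, against 0, 0.04 and 0 over all genes tested. Because the 8 were chosen with earlier results known, these counts and medians describe them and are not an independent test.

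**Figure D2:**
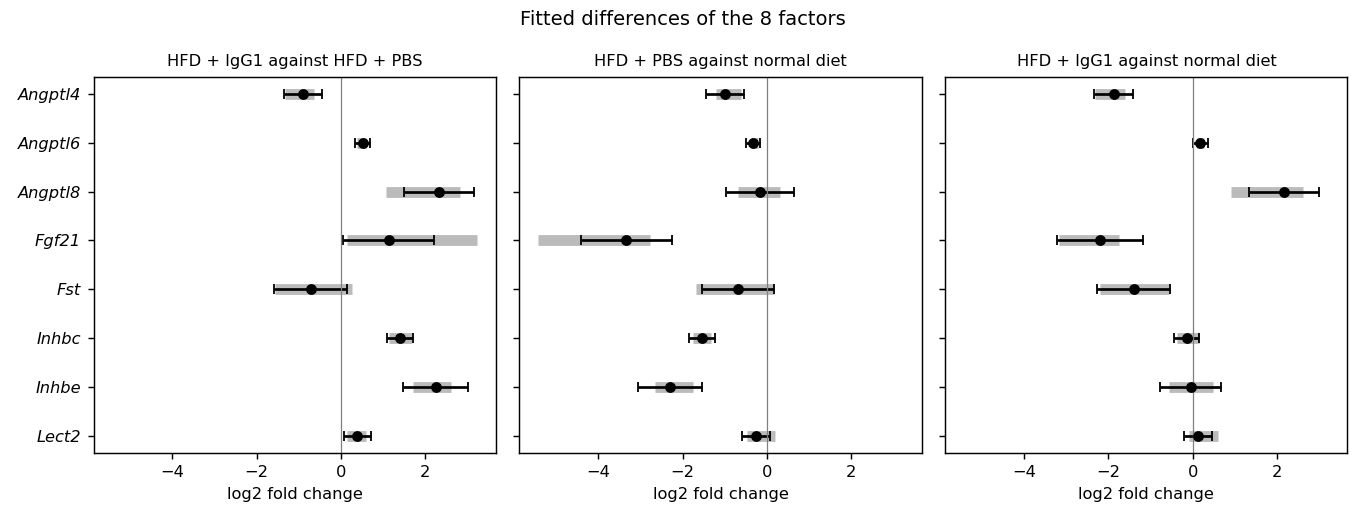
Fitted log2 fold changes (x axis) of the 8 factors in the 3 comparisons, first-named group over second. Points are edgeR's estimates, thin bars their SE, and grey bars the range when each of the 9 libraries is left out in turn. Inhbc and Inhbe lie to the right of 0 in HFD + IgG1 against HFD + PBS and to the left in HFD + PBS against normal diet, and Angptl4 lies to the left in all 3 panels.

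Angptl4 averaged lowest in HFD + IgG1, higher in HFD + PBS and highest in normal diet livers, an order of means that Fst also had. Angptl4 (ENSMUSG00000002289, chromosome 17, 33773750 to 33781830, minus strand, mm10) had 23.6, 63.5 and 37.6 CPM in HFD + IgG1 replicates 5, 6 and 7, 36.2, 101 and 94.1 CPM in HFD + PBS replicates 3, 4 and 6, and 142, 113 and 203 CPM in normal diet replicates 4, 5 and 6. All 6 libraries after the high-fat diet lay below the 3 normal diet libraries, while HFD + IgG1 and HFD + PBS overlapped. In HFD + IgG1 against normal diet the means were 41.6 ± 20.2 and 153 ± 46.3 CPM (SD, n = 3 each), a fitted log2 change of -1.88 (edgeR adjusted p = 0.478, SE 0.46). DESeq2 called this difference (adjusted p = 0.00577). HFD + PBS, at 77.0 ± 35.5 CPM, differed from normal diet by -0.99 (edgeR adjusted p = 0.254, SE 0.45), and HFD + IgG1 differed from HFD + PBS by -0.89 (edgeR adjusted p = 0.262, SE 0.45). Without the 3 mismatched libraries the values were -1.78, -1.30 and -0.47 for HFD + IgG1 against normal diet, HFD + PBS against normal diet and HFD + IgG1 against HFD + PBS. Adipocytes also make ANGPTL4, and the summed level of 6 adipocyte markers was 0.16 to 5.01 CPM in HFD + IgG1, 0.0442 to 0.155 in HFD + PBS and 0 to 0.18 in normal diet, with Lep at 0 in all 9 libraries. Of these sums, Cfd alone held 1.71, 0.107 and 4.77 CPM in HFD + IgG1 replicates 5, 6 and 7. Adipoq was at 0.0714 CPM or less and Plin1 at 0 in that group.

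Angptl8 was high in part of the HFD + IgG1 libraries. Angptl8 (ENSMUSG00000047822, chromosome 9, 21835510 to 21837347, plus strand) had 39.8, 15.6 and 138 CPM in HFD + IgG1 replicates 5, 6 and 7, 12.6, 5.49 and 20.6 CPM in HFD + PBS replicates 3, 4 and 6, and 9.83, 11.2 and 22.7 CPM in normal diet replicates 4, 5 and 6. HFD + IgG1 replicates 5 and 7 stood above every other library, though replicate 5 is a mismatched one, and replicate 6 lay among the rest. The means were 64.6 ± 65.0 in HFD + IgG1, 12.9 ± 7.57 in HFD + PBS and 14.6 ± 7.05 CPM in normal diet. HFD + IgG1 differed from HFD + PBS by a fitted log2 change of 2.32 (edgeR adjusted p = 0.162, SE 0.83) and from normal diet by 2.15 (edgeR adjusted p = 0.665, SE 0.83). Without HFD + IgG1 replicate 7 these were 1.06 and 0.91, and without HFD + IgG1 replicate 6 the first was 2.79 and passed (edgeR adjusted p = 0.0438). HFD + PBS differed from normal diet by -0.17 (edgeR adjusted p = 0.928, SE 0.80), a value whose sign turned without HFD + PBS replicate 4 (0.22) or normal diet replicate 6 (0.30). Leaving out the 3 mismatched libraries, the 3 values were 3.01, 2.21 and -0.80. HFD + IgG1 was then replicates 6 and 7, at 15.6 and 138 CPM, so the first 2 values rest on replicate 7. The gene lies within Dock6 on the opposite strand and shares 0 exonic bases with it.

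Angptl6, an ANGPTL protein described in mice as opposing obesity and insulin resistance, was the most even of the 8. Angptl6 (ENSMUSG00000038742, chromosome 9, 20873808 to 20879727, minus strand) had 14.7, 11.8 and 13.6 CPM in HFD + IgG1 replicates 5, 6 and 7, 8.08, 10.3 and 9.80 CPM in HFD + PBS replicates 3, 4 and 6, and 11.5, 12.0 and 12.0 CPM in normal diet replicates 4, 5 and 6. HFD + PBS lay below both other groups in every library. HFD + IgG1, at 13.3 ± 1.49 CPM, differed from HFD + PBS, at 9.39 ± 1.16 CPM, by a fitted log2 change of 0.51 (edgeR adjusted p = 0.142, SE 0.17). Against normal diet, at 11.8 ± 0.289 CPM, HFD + PBS differed by -0.33 (edgeR adjusted p = 0.288, SE 0.17) and HFD + IgG1 by 0.18 (edgeR adjusted p = 0.826, SE 0.17). Without the 3 mismatched libraries the values were 0.42, -0.33 and 0.09. The gene shares 265 exonic bases with A230050P20Rik on the opposite strand, and without the strand of the counting, reads in that shared stretch, out of 1582 exonic bases of Angptl6, cannot be told from that gene's. A230050P20Rik had 4821 counts over all libraries, where Angptl6 had 180 to 225 per library, and its part in the Angptl6 values was not tested.

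Genes around these ANGPTL proteins were read from lists chosen with earlier results known. Of 4 other genes of the Angptl family, 3 were tested and 0 were called in any comparison. Of 11 tested genes of the lipoprotein lipase axis, 0 were called, and 4 were lower and 2 higher at an unadjusted p under 0.05 in HFD + PBS against normal diet (11.4% and 9.41% of all genes), with a median of -0.23. In that comparison Pcsk6, a proprotein convertase, had 71.8 ± 5.30 CPM in HFD + PBS, against 152 ± 8.24 in normal diet (-1.08, edgeR adjusted p = 0.0627, SE 0.16). Apoa5, an apolipoprotein that favours lipase action, had 371 ± 126 and 911 ± 197 CPM (-1.29, edgeR adjusted p = 0.0786, SE 0.29). Lpl, the lipase itself, is named after its values were seen. It had 46.5, 186 and 104 CPM in HFD + IgG1, 316, 348 and 270 CPM in HFD + PBS and 108, 130 and 83.5 CPM in normal diet, so HFD + PBS stood above the other libraries. Its log2 fold change was -1.47 in HFD + IgG1 against HFD + PBS (edgeR adjusted p = 0.14, SE 0.42) and 1.54 in HFD + PBS against normal diet (edgeR adjusted p = 0.119, SE 0.42). In HFD + IgG1 against HFD + PBS the list's smallest p values were those of Pcsk6, at 0.77 (SE 0.16), and the hepatic lipase gene Lipc, at 0.98 (SE 0.23), and edgeR's adjusted p was 0.14 for both.

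Fgf21 was low after the high-fat diet whether or not IgG1 was given. Fgf21 (ENSMUSG00000030827, chromosome 7, 45613886 to 45615490, minus strand) had 3, 18 and 39 counts in HFD + IgG1 replicates 5, 6 and 7, 5, 0 and 27 counts in HFD + PBS replicates 3, 4 and 6, and 116, 104 and 60 counts in normal diet replicates 4, 5 and 6. The 3 normal diet libraries lay above all others, and the 0 of HFD + PBS replicate 4 allows up to 3 counts, or 0.172 CPM. The means were 1.18 ± 1.09 CPM in HFD + IgG1, 0.538 ± 0.748 in HFD + PBS and 5.49 ± 1.76 in normal diet. HFD + PBS differed from normal diet by a fitted log2 change of -3.33 (edgeR adjusted p = 0.152, SE 1.08), which DESeq2 called (adjusted p = 0.0183). HFD + IgG1 differed from normal diet by -2.20 (edgeR adjusted p = 0.709, SE 1.01). HFD + IgG1 differed from HFD + PBS by 1.13 (edgeR adjusted p = 0.533, SE 1.08). At these counts the fitted values moved widely: without HFD + PBS replicate 6 they were -5.43, -2.20 and 3.23, and without the 3 mismatched libraries -5.38, -1.71 and 3.66. The value for HFD + IgG1 against HFD + PBS was 0.15 without HFD + IgG1 replicate 7, 0.53 without HFD + PBS replicate 4 and 0.72 without HFD + PBS replicate 3. Pancreatic acinar cells also make FGF21. The summed level of 7 acinar markers was 6.47 to 21.8 CPM in HFD + IgG1, 3.97 to 9.03 in HFD + PBS and 6.41 to 10.1 in normal diet, with Cela1 at 3.76 to 21.5 CPM and Cpa1, Pnlip and Cpb1 at 0 in all 9 libraries. Their part in the Fgf21 values was not tested.

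Of the FGF21 receptors Fgfr1 to Fgfr4 and the coreceptor Klb, all 5 were tested and 0 were called. Klb, at 26.9 ± 11 CPM in HFD + PBS, against 44.6 ± 2.70 in normal diet, differed by -0.73 (edgeR adjusted p = 0.209, SE 0.30), and Fgfr1, at 20.7 ± 5.80 and 10.7 ± 0.417 CPM, by 0.95 (edgeR adjusted p = 0.111, SE 0.25). Fgfr4, the main FGF receptor of hepatocytes, had 60.3 ± 0.870 CPM in HFD + IgG1 and 42.4 ± 8.12 in HFD + PBS (0.51, edgeR adjusted p = 0.141, SE 0.16).

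Inhbc had the smallest p of the 8 in both comparisons that involve HFD + PBS, and its HFD + PBS libraries lay below all others. Inhbc (ENSMUSG00000025405, chromosome 10, 127356322 to 127370431, minus strand) had 73.4, 34.7 and 80.0 CPM in HFD + IgG1 replicates 5, 6 and 7, 20.8, 20.6 and 30.5 CPM in HFD + PBS replicates 3, 4 and 6, and 85.0, 59.4 and 64.3 CPM in normal diet replicates 4, 5 and 6. Within HFD + IgG1, replicate 6 was the lowest and the nearest to HFD + PBS. HFD + PBS, at 24.0 ± 5.65 CPM, differed from normal diet, at 69.6 ± 13.6 CPM, by a fitted log2 change of -1.54 (edgeR adjusted p = 0.078, SE 0.31), number 120 of 14763 genes by p. HFD + IgG1, at 62.7 ± 24.4 CPM, differed from HFD + PBS by 1.39 (edgeR adjusted p = 0.14, SE 0.31), number 126 by p. HFD + IgG1 and normal diet overlapped (-0.15, edgeR adjusted p = 0.924, SE 0.30). DESeq2 called the first 2 differences (adjusted p = 0.000408 and 0.00401), and edgeR called them without HFD + IgG1 replicate 6 (adjusted p = 0.0137 and 0.00353). Leaving out the 3 mismatched libraries, the 3 values were -1.82, 1.42 and -0.41. The antisense gene Gm47200 shares 268 exonic bases with Inhbc and had 3 counts in all.

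Inhbe followed the same order of groups with a wider spread between animals. Inhbe (ENSMUSG00000047492, chromosome 10, 127348857 to 127354411, minus strand) had 53.2, 21.9 and 82.8 CPM in HFD + IgG1 replicates 5, 6 and 7, 14.7, 2.40 and 16.2 CPM in HFD + PBS replicates 3, 4 and 6, and 35.8, 88.2 and 39.5 CPM in normal diet replicates 4, 5 and 6. All HFD + PBS libraries were below all others, with replicate 4 far below its group. The means were 52.6 ± 30.5 CPM in HFD + IgG1, 11.1 ± 7.58 in HFD + PBS and 54.5 ± 29.2 in normal diet. The log2 fold change was 2.24 in HFD + IgG1 against HFD + PBS (edgeR adjusted p = 0.151, SE 0.76), -2.29 in HFD + PBS against normal diet (edgeR adjusted p = 0.164, SE 0.76) and -0.05 in HFD + IgG1 against normal diet (edgeR adjusted p = 0.991, SE 0.72). Without the 3 mismatched libraries these were 2.55, -2.10 and 0.45, so the sign of the last turned. Inhbc and Inhbe are neighbours on the same strand with 1910 bases and no annotated gene between them, and reads running on from Inhbc into Inhbe were not tested for.

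Fst, the activin antagonist, varied widely within each group. Fst (ENSMUSG00000021765, chromosome 13, 114452290 to 114458951, minus strand) had 10.6, 3.26 and 3.20 CPM in HFD + IgG1 replicates 5, 6 and 7, 3.22, 19.0 and 5.83 CPM in HFD + PBS replicates 3, 4 and 6, and 12.5, 4.17 and 28.1 CPM in normal diet replicates 4, 5 and 6. Each group held libraries near 3 to 6 CPM and at least 1 above 10, and all groups overlapped. HFD + IgG1 differed from HFD + PBS by a fitted log2 change of -0.72 (edgeR adjusted p = 0.63, SE 0.87), which was 0.27 without HFD + PBS replicate 4. HFD + PBS differed from normal diet by -0.68 (edgeR adjusted p = 0.687, SE 0.85), which was 0.16 without normal diet replicate 6, and HFD + IgG1 differed from normal diet by -1.40 (edgeR adjusted p = 0.761, SE 0.87). The 3 values without the mismatched libraries were -1.81, -0.84 and -2.66. A noncoding antisense gene, Gm47040, shares 115 exonic bases with Fst and had 5 counts in all.

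Of 16 other genes of the activin and follistatin axis, 12 were tested and 0 were called. In HFD + IgG1 against HFD + PBS, 3 were higher and 2 lower at an unadjusted p under 0.05 (12.6% and 11.6% of all genes), with a median of -0.17. Inhbb, the beta B subunit, had 2.57, 3.53 and 1.99 CPM in HFD + IgG1 against 8.70, 12.1 and 6.29 CPM in HFD + PBS and 4.95, 7.40 and 2.10 CPM in normal diet. HFD + IgG1 thus lay below HFD + PBS in every library, opposite to Inhbc and Inhbe (-1.74, edgeR adjusted p = 0.14, SE 0.45). Smad3, a transcription factor that activins switch on, was at 0.69 (edgeR adjusted p = 0.141, SE 0.23) in that comparison and at -0.54 (edgeR adjusted p = 0.217, SE 0.23) in HFD + PBS against normal diet. Acvr2a, an activin receptor, had 23.3 ± 4.49 CPM in HFD + PBS, against 35.1 ± 4.97 in normal diet (-0.59, edgeR adjusted p = 0.143, SE 0.19).

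Lect2 gave no difference beyond the spread in any comparison. Lect2 (ENSMUSG00000021539, chromosome 13, 56542464 to 56548502, minus strand) had 74.8, 51.5 and 93.5 CPM in HFD + IgG1 replicates 5, 6 and 7, 64.7, 48.9 and 53.7 CPM in HFD + PBS replicates 3, 4 and 6, and 42.2, 103 and 54.7 CPM in normal diet replicates 4, 5 and 6. Both the lowest and the highest library were normal diet ones. The log2 fold change was 0.39 in HFD + IgG1 against HFD + PBS (edgeR adjusted p = 0.475, SE 0.33), -0.26 in HFD + PBS against normal diet (edgeR adjusted p = 0.687, SE 0.33) and 0.13 in HFD + IgG1 against normal diet (edgeR adjusted p = 0.94, SE 0.33). Without the library labelled normal diet replicate 5 the second was 0.20, and without the 3 mismatched libraries the 3 were 0.30, 0.26 and 0.56. Of 4 genes listed with Lect2, the receptor Tie1, the related Tek, the HGF receptor Met and the lectin Cd209a, 0 were called. Met had 89.3 ± 9.32 CPM in HFD + PBS, against 144 ± 24.7 in normal diet (-0.69, edgeR adjusted p = 0.115, SE 0.19).

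**Figure D3:**
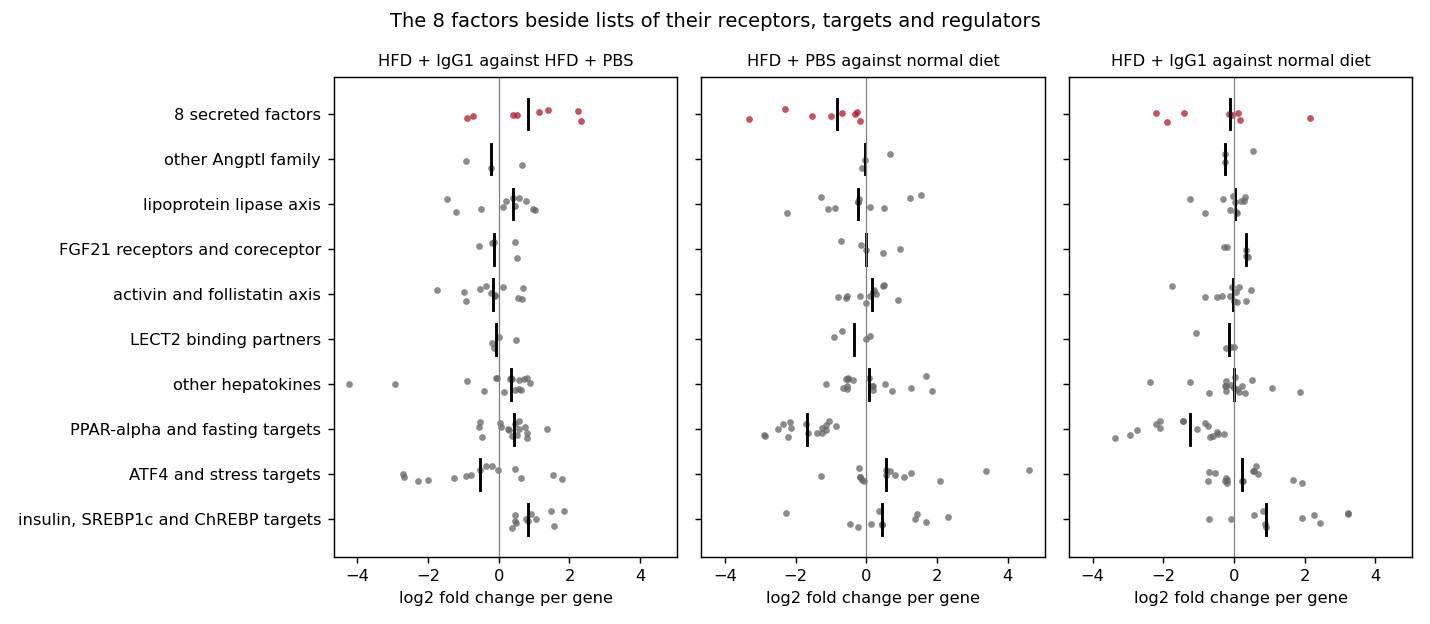
Fitted log2 fold change (x axis) of each gene in the 8 factors (red) and in 9 lists of related genes (grey), in the 3 comparisons, first-named group over second, with the median as a black bar. In HFD + PBS against normal diet the 16 PPAR-alpha and fasting targets all lie left of 0, with a median of -1.68.

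All 16 listed PPAR-alpha and fasting targets, the program that also holds Angptl4 and Fgf21, were negative in HFD + PBS against normal diet, with a list median of -1.68, and 15 had no overlap (15.3% of all genes were lower without overlap there). All 16 were negative in HFD + IgG1 against normal diet too, with a median of -1.23 and 14 without overlap (6.41% of all genes). In HFD + IgG1 against HFD + PBS the median was 0.42, with 13 of 16 positive and 1 higher without overlap (15.3% of all genes). None of the 16 was called by edgeR. In HFD + IgG1 against HFD + PBS Angptl4 stood at -0.89 (SE 0.45), opposite in sign to the list median, and Fgf21 at 1.13 (SE 1.08). Acot2, a mitochondrial thioesterase, had 3.59 ± 0.461 CPM in HFD + IgG1 and 27.5 ± 18.1 in normal diet (-2.93, edgeR adjusted p = 0.362, SE 0.54). Ppara itself had 95.3 ± 39.4 CPM in HFD + IgG1, 36.9 ± 6.37 in HFD + PBS and 116 ± 29.9 in normal diet (1.37 against HFD + PBS, edgeR adjusted p = 0.14, SE 0.31, and -1.65 for HFD + PBS against normal diet, edgeR adjusted p = 0.078, SE 0.32). Cpt1a, whose enzyme lets long-chain fatty acids into mitochondria, stood at -1.03 in HFD + IgG1 against normal diet (edgeR adjusted p = 0.426, SE 0.23). Creb3l3, a liver transcription factor that drives Fgf21 together with PPAR-alpha, had 164 ± 64.8 CPM in HFD + PBS, against 390 ± 24.0 in normal diet (-1.25, edgeR adjusted p = 0.078, SE 0.25).

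Listed targets of insulin, SREBP1c and ChREBP, the fed-state program that also holds Angptl8, had a median of 0.83 in HFD + IgG1 against HFD + PBS, with 11 of 11 tested positive and 3 higher without overlap (15.3% of all genes). Their median was 0.90 in HFD + IgG1 against normal diet, with 8 of 11 higher without overlap (5.54% of all genes). It was 0.44 in HFD + PBS against normal diet, and 0 were called in any of the 3. Srebf1 had 311, 102 and 213 CPM in HFD + IgG1 replicates 5, 6 and 7, against 97.2, 74.0 and 54.8 CPM in HFD + PBS. The lowest HFD + IgG1 library was again replicate 6 (1.47, edgeR adjusted p = 0.14, SE 0.37). Pklr, the liver pyruvate kinase gene, was at 1.06 (edgeR adjusted p = 0.14, SE 0.24). Scd1, the stearoyl-CoA desaturase gene, averaged 7080 ± 2790 CPM in HFD + IgG1, 3760 ± 514 in HFD + PBS and 759 ± 397 in normal diet (3.22, edgeR adjusted p = 0.236, SE 0.47, and 2.31, edgeR adjusted p = 0.078, SE 0.46, each against normal diet). Fasn, the fatty acid synthase gene, was at 2.26 in HFD + IgG1 against normal diet (edgeR adjusted p = 0.362, SE 0.41). Me1, malic enzyme, was at -2.26 in HFD + PBS against normal diet (edgeR adjusted p = 0.078, SE 0.43), a sign opposite to that of Scd1.

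Of 15 tested ATF4 and stress targets, 9 were positive in HFD + PBS against normal diet, with a median of 0.56. In HFD + IgG1 against HFD + PBS 11 were negative, with a median of -0.52, and 0 were called in either. At edgeR's unadjusted p under 0.05, 3 were higher and 0 lower in the first (9.41% and 11.4% of all genes). In the second, 3 were higher and 6 lower (12.6% and 11.6%). The 4 positive in the second were Ddit3 (1.79), Vldlr (1.52), Atf4 (0.64) and Shmt2 (0.45). Ddit4, which restrains mTORC1, had 24.6, 210 and 50 CPM in HFD + PBS replicates 3, 4 and 6, and 3.11, 3.90 and 4.62 CPM in normal diet. Every HFD + PBS library was above every normal diet library (4.61, edgeR adjusted p = 0.078, SE 0.86). HFD + IgG1 libraries had 7.85, 13.1 and 23.4 CPM (-2.68 against HFD + PBS, edgeR adjusted p = 0.14, SE 0.78). Phgdh, of serine synthesis, was at 3.38 in HFD + PBS against normal diet (edgeR adjusted p = 0.0888, SE 0.80) and at -2.71 in HFD + IgG1 against HFD + PBS (edgeR adjusted p = 0.14, SE 0.76). Its levels were low: 8.3, 1.89 and 2.42 CPM in HFD + PBS replicates 3, 4 and 6. Normal diet libraries held 0.855, 0.111 and 0.24 CPM, and HFD + IgG1 libraries 0.571, 0.908 and 0.423. Among 17 other hepatokines, 0 were called. Igfbp2, an IGF binding protein, had 457, 391 and 540 CPM in HFD + IgG1, 208, 230 and 314 CPM in HFD + PBS and 511, 585 and 555 CPM in normal diet. HFD + PBS lay below both other groups, as it did for Inhbc (0.89, edgeR adjusted p = 0.14, SE 0.21, against HFD + PBS, and -1.14, edgeR adjusted p = 0.078, SE 0.21, for HFD + PBS against normal diet). Dpp4 was at 0.58 (SE 0.17) and -0.57 (SE 0.17) in the same comparisons, with edgeR adjusted p of 0.14 and 0.127. Tsku and Manf were at 1.88 (SE 0.69) and 1.08 (SE 0.38) in HFD + IgG1 against normal diet, with edgeR adjusted p of 0.644 and 0.625.

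Genes with the most similar profile were found over the 9 libraries, among 13222 genes with at least 1 CPM on average. Likeness was the root mean square difference of log2 CPM after subtracting each gene's mean, a description over libraries that share their groups and scaling. For Fgf21 the nearest were Gm15611, at 0.651, and Cyp4a10 and Cyp4a14, fatty acid hydroxylases and PPAR-alpha targets, at 0.757 and 1.07, against a median of 1.98 over all genes. For Angptl8 they were the phosphate transporter gene Slc34a2, at 0.597, Ddit3, at 0.599, and Hdhd3, at 0.632, against a median of 1.27. Ddit3 encodes CHOP, a transcription factor that ATF4 switches on. It had 4.28, 5.72 and 32.9 CPM in HFD + IgG1 replicates 5, 6 and 7, 4.33, 1.66 and 6.34 CPM in HFD + PBS and 3.72, 5.34 and 4.50 CPM in normal diet. Ddit3 and Angptl8 were thus both highest in HFD + IgG1 replicate 7 and lowest in HFD + PBS replicate 4, but Ddit3 was not high in the library labelled HFD + IgG1 replicate 5. For Fst the nearest was Irs2, at 0.640, which encodes an adaptor of the insulin receptor, followed by Gm7327 at 0.648 and Cdc42ep5 at 0.686 (median 1.16). Irs2 had 32.3, 36.6 and 16.6 CPM in HFD + IgG1, 21.9, 104 and 57.6 CPM in HFD + PBS and 110, 33.9 and 86.1 CPM in normal diet. Like Fst, it was highest within HFD + PBS in replicate 4 and lowest within normal diet in replicate 5. The highest library differed in the other groups: within HFD + IgG1 it was replicate 5 for Fst and replicate 6 for Irs2. Within normal diet it was replicate 6 for Fst and replicate 4 for Irs2.

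**Figure D4:**
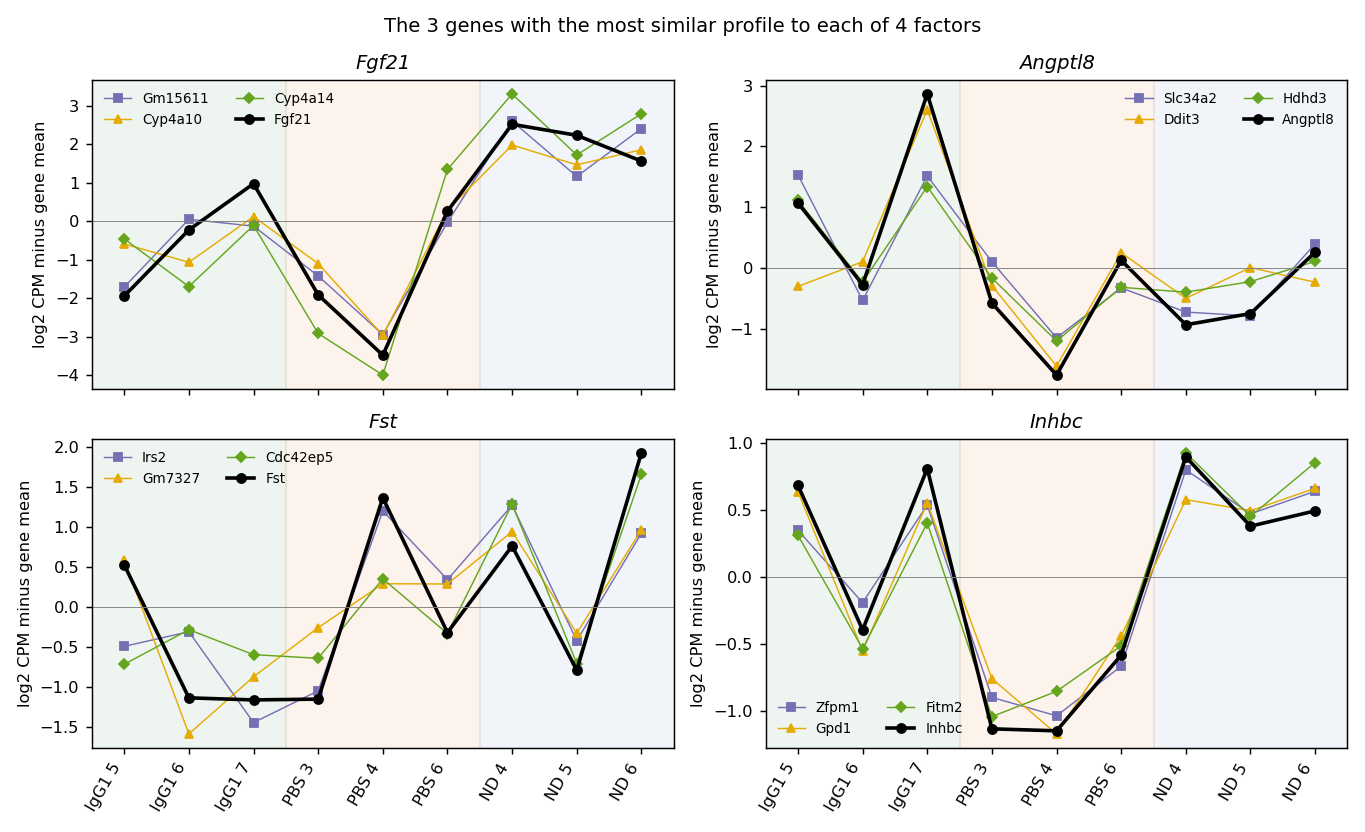
Log2 CPM minus each gene's mean (y axis) over the 9 libraries (x axis; IgG1 and PBS are the high-fat diet groups, ND is normal diet) for Fgf21, Angptl8, Fst and Inhbc (black) and the 3 genes nearest to each. Angptl8 and Ddit3 share their peak in HFD + IgG1 replicate 7, and Fgf21, Cyp4a10 and Cyp4a14 their low in HFD + PBS replicate 4.

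Inhbc had the closest neighbours of the wide-ranging factors: Zfpm1, a cofactor of GATA factors, at 0.195, Gpd1, the cytosolic glycerol-3-phosphate dehydrogenase gene, at 0.210, and Fitm2, which serves lipid droplet formation, at 0.249, against a median of 0.805. Gpd1 had 355, 156 and 335 CPM in HFD + IgG1 replicates 5, 6 and 7, 135, 102 and 168 CPM in HFD + PBS and 341, 322 and 361 CPM in normal diet. As with Inhbc, replicate 6 was the lowest of HFD + IgG1, and for Gpd1 it lay below HFD + PBS replicate 6. The neighbours of Inhbe were Fam89a at 0.637, Trmt9b at 0.659 and Ugt3a1 at 0.674 (median 1.51), and those of Angptl4 were the mitochondrial carrier Slc25a47 at 0.333, Ctcflos at 0.356 and Gm7652 at 0.363 (median 1.04). Angptl6 and Lect2, which vary little, had neighbours at 0.0502 (Ipo8) and 0.192 (Trim14), against their own root mean square of 0.239 and 0.413.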

How the data were processed

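Per the labels' protocols, NEBNext Ultra libraries were made from 1 µg of Trizol-extracted RNA of each of 9 livers. What the authors deposited is 1 table of raw counts by Ensembl gene ID. Bowtie 0.12.2 and mm10 appear, with no role, in the submitters' processing notes. The counting program, its annotation and its strand setting are not stated there or in the labels. Symbols, exon lengths and coordinates came from GENCODE M21 (GRCm38, also called mm10), which named 54495 of 54532 IDs. Each library is 1 mouse liver per the labels, so p-values measure the spread between these animals.

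The test was edgeR 4.0.16 (R 4.3.3): TMM, filterByExpr (minimum count 10, minimum total 15), group means over all 9 libraries, glmQLFit (robust) then glmQLFTest (a two-sided test). Adjustment was Benjamini-Hochberg over 14763 genes, with 0.05 as the threshold. The common biological coefficient of variation was 0.318. The SE is the unshrunk log2 fold change over the root of the F statistic, and printed fold changes are edgeR's shrunken ones. Depth was 16215194 to 18538463 counts per library, and the limit for a count of 0 is 3 counts and covers counting error only. A 3 against 3 exact test cannot go below p = 0.1, so none was made.

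The members and lists were chosen with earlier results of these data known, and no list was tested. Named genes are the 8 factors, the 2 of each list and comparison with the smallest p where none passed (not all are described, and some are not reported here), and the 3 genes nearest in profile (prior count 2). Alternatives were DESeq2 1.42.0, limma-voom (limma 3.58.1), RLE and upper-quartile factors, no filter, only the 6 libraries compared, the replicate number as a block, each library left out, the 3 mismatched libraries left out, and only the library whose label reads IgG1. Counts of factors without overlap, also taken with libraries left out (chosen after seeing the data), are not given for those settings, since fewer libraries overlap less by construction.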

Additional observations from a re-analysis of the deposited data

How the results depend on the processing

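Of 424 values of the 8 factors under alternatives, 394 kept their direction and side of the threshold, 10 passed it only there and 20 turned sign, none of these past the threshold. In HFD + PBS against normal diet, HFD + IgG1 against HFD + PBS and HFD + IgG1 against normal diet, DESeq2 called 1184, 1251 and 111 genes, among them 2, 1 and 1 of the factors, where edgeR called 0 of either. Without a filter edgeR called 274, 57 and 6 genes (1 factor, in the first). With only the 6 libraries compared it called 184, 0 and 3 (1 factor, in the first). Without the 3 mismatched libraries it called 2, 0 and 0, and no factor. With only the library whose label reads IgG1, 556 genes and 1 factor were called against HFD + PBS and 3 genes against normal diet. There the lone library is assumed to vary like the others. Leaving out each library gave 0 to 576, 0 to 2356 and 0 to 6 genes, and 0 to 1, 0 to 2 and 0 factors. The highest counts all came without HFD + IgG1 replicate 6. The cause was not tested. limma-voom, RLE and upper-quartile factors called 0 genes. With the RLE and upper-quartile factors the median of all genes stayed within -0.04 to 0.06.

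Same-numbered libraries share only a number: correlations of their deviations from group means ran from -0.49 to 0.01. With the replicate block edgeR called 0 genes and 0 factors in each comparison, and turned Lect2 (0.03, -0.27 and -0.23 in the 3 comparisons) and Fgf21 in HFD + IgG1 against HFD + PBS (-0.08). Without the 3 mismatched libraries, Lect2 in HFD + PBS against normal diet (0.26) and Inhbe in HFD + IgG1 against normal diet (0.45) turned. With only the library whose label reads IgG1, the mismatched replicate 5, Fgf21 (-1.29) and Fst (0.19) turned against HFD + PBS. Inhbc (0.08) turned against normal diet in that setting. With each library left out, sign changes fell in these ranges: in HFD + PBS against normal diet Angptl8 from -0.68 to 0.30, Fst from -1.69 to 0.16 and Lect2 from -0.47 to 0.20, in HFD + IgG1 against HFD + PBS Fst from -1.56 to 0.27, and in HFD + IgG1 against normal diet Inhbc from -0.38 to 0.14, Inhbe from -0.56 to 0.48 and Lect2 from -0.10 to 0.60.

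These values are limited by 3 libraries per group, by 0 to 116 counts of Fgf21 per library and by a strand setting that is not stated.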
